A study of Mus musculus with 25 samples.

Results

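The genes described here encode the machinery that shows peptides to T cells, followed in ribosome-bound RNA from kidney podocytes of control and Actn4 knock-in mice at 3 ages. They were chosen by name: 10 antigen presentation genes, each read from 1 probe set, the brightest on average across the 25 arrays among those annotated to that gene alone. Of these, 7 of 10 had such a probe set: Cd74, H2-Aa, H2-Ab1, H2-Eb1, H2-DMa, H2-D1 and H2-K1, out of 17097 genes named on the array. B2m, Tap1 and Tap2 were not analysed here. All 7 passed the filter on dim genes.

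Podocytes are the epithelial cells that wrap the glomerular capillaries. Every mouse carried the Tg:Col1a1-eGFPL10a transgene, in which a collagen 1α1 promoter and enhancer drive a fusion of eGFP with the ribosomal protein L10a; ribosomes bearing the tag, and the RNA on them, were pulled down from kidney (translating ribosome affinity purification, TRAP). Control mice (WT) carried this transgene alone, and knock-in mice (KI) also carried Actn4tm1.1Plk, a point mutation in the gene for the actin crosslinker alpha-actinin-4, and no source used here says whether 1 or 2 alleles were mutant. The strain was C57/129sv and sex was recorded as unknown. Y-linked genes were high on 4 of 4 WT and 1 of 4 KI arrays at 2 weeks, on 2 of 5 and 3 of 4 at 5 weeks, and on 1 of 4 and 3 of 4 at 44 weeks, so sex by this measure ran with age, in opposite directions in the genotypes. Each genotype had 4 arrays per age, except that 5 WT arrays were made at 5 weeks; sample labels give the last age as postnatal day 300. No label states that the arrays stem from separate animals, and the p-values therefore describe only the spread among these arrays. The promoter that drives the tag is not specific to podocytes, and the RNA held transcripts of other kidney cells.

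Class II molecules are heterodimers of an alpha and a beta chain that carry peptides from endosomes to the surface of macrophages, dendritic cells and B cells. Cd74, the invariant chain, chaperones them and blocks their groove; H2-Aa and H2-Ab1 encode the chains of the mouse A molecule, H2-Eb1 the beta chain of the E molecule, and H2-DMa a chain of the DM molecule that exchanges the remnant of Cd74 for peptide. Class I heavy chains such as H2-D1 and H2-K1 pair with beta-2-microglobulin, are loaded with cytosolic peptides through the TAP transporter, and are made by nearly all nucleated cells. Interferon gamma raises both classes, through the coactivators Ciita for class II and Nlrc5 for class I.

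All of these genes except Cd74 and B2m, which lies on chromosome 2, are on mouse chromosome 17 (GRCm38.p6), in the order H2-K1, H2-DMa, Tap1, Tap2, H2-Ab1, H2-Aa, H2-Eb1, H2-D1. The 250 bases before the start are shown for H2-Aa, H2-Eb1, H2-D1 and H2-K1, since each pair, class II and class I, moved together across the arrays. Sequences are from RefSeq, build GRCm38.p6, written 5′ to 3′ on the strand of the gene, with matches to 4 motifs in capitals. The motifs, searched on both strands, were the Y box CTGATTGG bound by NF-Y, the X2 box TGACGTCA bound by CREB, the kappaB site GGGATTCCC and the interferon response element TTTCNCTTC; their letters were chosen with these windows in view.
H2-Aa chr17:34287824-34288073 (-): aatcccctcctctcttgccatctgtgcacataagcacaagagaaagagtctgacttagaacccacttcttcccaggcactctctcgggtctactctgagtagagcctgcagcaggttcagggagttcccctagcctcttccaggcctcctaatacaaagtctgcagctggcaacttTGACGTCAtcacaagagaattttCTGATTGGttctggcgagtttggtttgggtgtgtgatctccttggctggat
H2-Eb1 chr17:34305617-34305866 (+): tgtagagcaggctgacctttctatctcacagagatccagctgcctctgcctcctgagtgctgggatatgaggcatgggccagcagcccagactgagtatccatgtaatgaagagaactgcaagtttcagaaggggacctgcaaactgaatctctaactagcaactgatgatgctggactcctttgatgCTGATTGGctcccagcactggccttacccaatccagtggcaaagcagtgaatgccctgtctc
H2-D1 chr17:35262844-35263093 (+): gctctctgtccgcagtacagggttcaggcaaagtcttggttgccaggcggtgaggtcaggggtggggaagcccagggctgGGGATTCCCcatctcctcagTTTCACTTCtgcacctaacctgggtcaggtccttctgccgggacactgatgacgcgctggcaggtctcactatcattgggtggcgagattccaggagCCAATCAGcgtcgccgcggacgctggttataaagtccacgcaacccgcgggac
H2-K1 chr17:34000348-34000597 (-): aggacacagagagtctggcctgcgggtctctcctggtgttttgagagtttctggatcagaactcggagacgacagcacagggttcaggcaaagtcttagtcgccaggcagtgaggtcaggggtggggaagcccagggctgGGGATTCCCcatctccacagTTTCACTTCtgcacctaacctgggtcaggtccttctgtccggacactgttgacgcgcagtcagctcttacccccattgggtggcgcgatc

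The Y box stood 51 bases before the start in H2-Aa, 62 bases before it in H2-Eb1 and, as its reverse complement CCAATCAG, 53 bases before it in H2-D1. It occurs in 3.83% of 32851 windows of the same length. The X2 box stood 74 bases before the start of H2-Aa and occurs in 1.55% of windows. The kappaB motif was 170 bases before the start in H2-D1 and 110 in H2-K1; it occurs in 0.301% of windows, those of 95 genes, among them the class I genes H2-Q6 and H2-Q7. The interferon response motif followed it at 150 bases in H2-D1 and 90 in H2-K1 and occurs in 2.00% of windows. Aligned with gaps, the H2-D1 and H2-K1 windows shared 170 of 250 bases (68%) with a longest shared run of 47, and those of H2-Aa and H2-Eb1 shared 127 (50.8%) with a longest run of 8. The windows of H2-DMa, B2m and Tap1 were searched as well. Tap1 held a Y box 222 bases before its start, and no other match to these 4 motifs was found in these 3 genes. Cd74, on chromosome 18, was left out of the search, and no window of H2-Ab1 or Tap2 was searched. H2-K1 has a second listed start, before which the kappaB motif stood at 124 bases and the interferon response motif at 104. A match is one of letters only.

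The values are log2 signals per probe set. A difference between groups was tested with limma on a model of the 6 group means over all 25 arrays, and a gene was called at a Benjamini-Hochberg adjusted p under 0.05 over 11968 genes. Group means are given ± SD and differences ± standard error. The podocyte markers stood high on every array (Podxl, a sialoprotein of the podocyte surface, 12.53 to 13.00; Nphs1, nephrin, 9.53 to 11.49), and markers of other kidney cells were also measured. The mean of 9 proximal tubule markers ran from 8.86 to 10.89 and that of 14 macrophage and dendritic cell markers from 4.93 to 6.20. WT arrays 7, 8 and 9 of 5 weeks, already known to carry many calls at that age, held the lowest tubule means of their group (8.86, 9.66 and 9.23; the other two 9.88 and 9.92). With all 3 left out, and 2 WT arrays remaining at 5 weeks, limma called 1 gene between genotypes at that age instead of 2638; this was not repeated for single probe sets. In such bulk RNA, more cells of a type and more RNA per cell cannot be told apart.

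With age, the class II genes Cd74, H2-Aa and H2-Eb1 and the class I gene H2-D1 rose in both genotypes between 2 and 44 weeks, from 2.05-fold to 3.48-fold in WT and from 2.24-fold to 2.91-fold in KI. H2-K1 rose in WT by 1.62-fold. H2-Ab1 and H2-DMa passed in neither genotype. In WT, 5 of 7 genes were called higher and 0 lower, where 13.6% of all genes were called higher and 31.6% in either direction; in KI, 4 of 7 were called higher, where 14.3% of all genes were called higher and 30.2% in either direction. The median difference of the 7 genes was 1.04 in WT and 1.17 in KI on the log2 scale, while the median over all genes was -0.03 and -0.01. Groups at 44 and 2 weeks did not overlap for 2 genes in WT, against 27.6% of all genes, and for 4 in KI, against 34.8%.

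**Figure D1:**
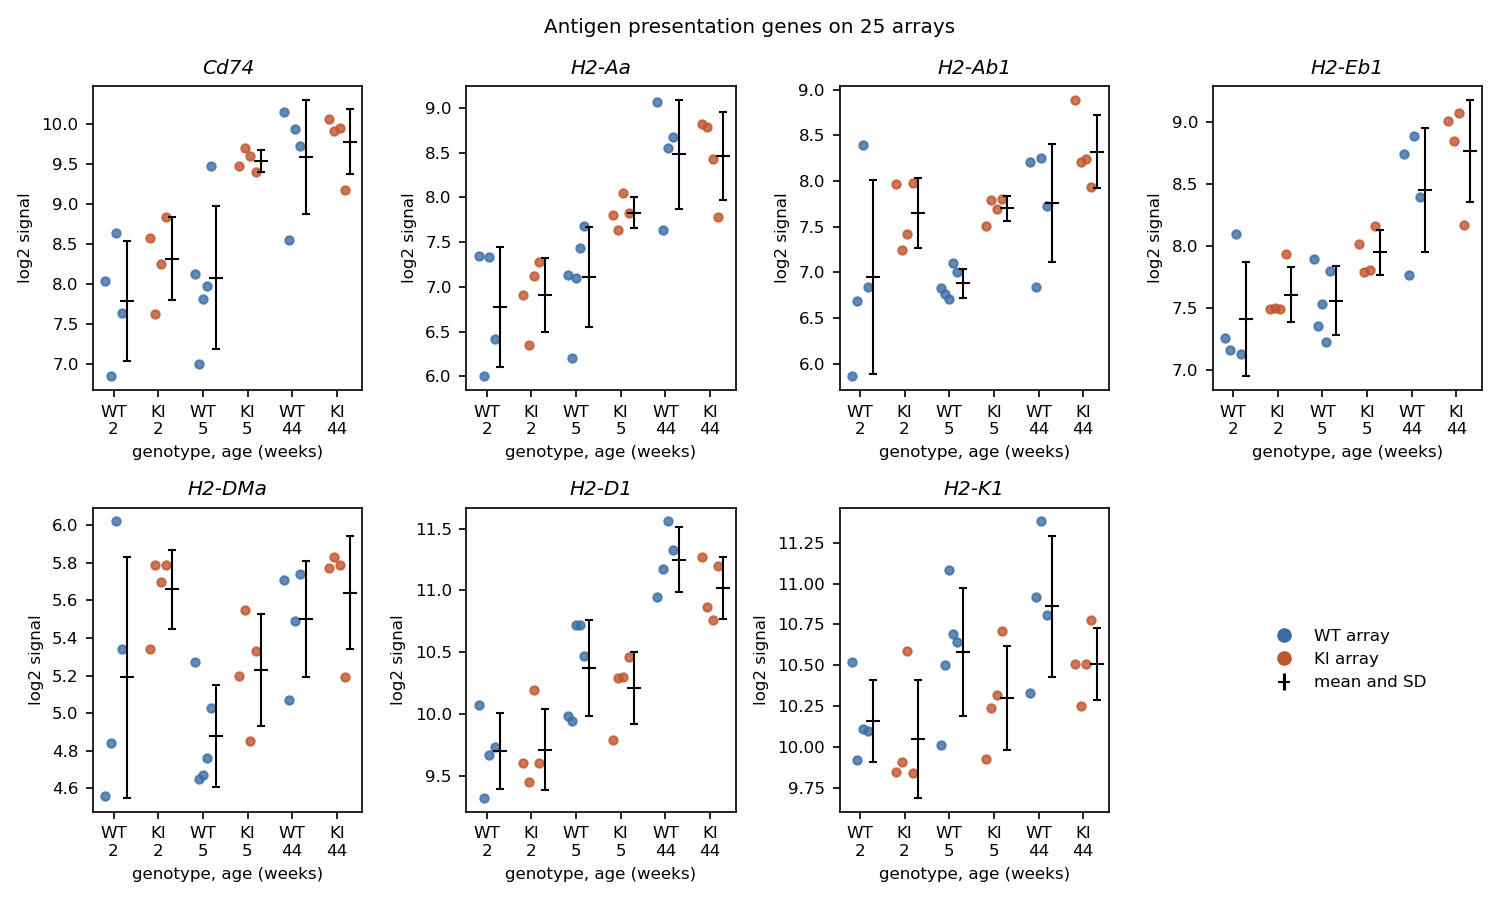
Log2 signal of 7 antigen presentation genes (vertical axes, scaled per gene) by genotype and age in weeks (horizontal axes). Each point is 1 array, blue for WT and red for KI, and bars show the mean and SD of the group. H2-D1 is higher on every 44-week array, 10.76 to 11.56, than on any younger array, 9.32 to 10.72.

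H2-D1, a class I heavy chain, had the lowest adjusted p of the 7 genes by age. In WT the signals were 10.07, 9.32, 9.67 and 9.73 at 2 weeks, 9.98, 9.94, 10.72, 10.72 and 10.47 at 5 weeks, then 10.95, 11.17, 11.56 and 11.33 at 44 weeks. In KI they were 9.60, 9.45, 10.19 and 9.60 at 2 weeks, 9.79, 10.29, 10.30 and 10.46 at 5 weeks, then 11.27, 10.87, 10.76 and 11.20 at 44 weeks. Every array at 44 weeks was above every younger array, while the 2-week and 5-week groups overlapped within each genotype. Between 2 and 44 weeks H2-D1 rose by 1.56 ± 0.21 in WT (limma adjusted p = 1.2e-05) and by 1.31 ± 0.21 in KI (adjusted p = 0.00011). The difference between the genotypes in this change, KI minus WT, was -0.24 ± 0.30 (limma adjusted p = 1.00). Averaged over all H2-D1 probe sets, of which 2 split the arrays regardless of group, the change was not called in WT (0.93, limma adjusted p = 0.29) or KI (0.46, adjusted p = 0.63).

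On this probe set H2-D1 was called higher in both intervals in WT and in the later one in KI. From 5 to 44 weeks the step was 0.89 ± 0.20 in WT (limma adjusted p = 0.0046) and 0.81 ± 0.21 in KI (adjusted p = 0.013), and from 2 to 5 weeks it was 0.67 ± 0.20 in WT (adjusted p = 0.014) against 0.50 ± 0.21 in KI (adjusted p = 0.12). KI minus WT, the earlier step differed by -0.17 ± 0.29 (limma adjusted p = 0.78), so a difference in timing was not shown. The earlier WT step was not called without WT array 2 of 2 weeks (0.54, limma adjusted p = 0.06), without WT arrays 7, 8 and 9 of 5 weeks (0.53, adjusted p = 0.18), nor with a sex covariate read from Y-linked genes (0.55, adjusted p = 0.061). The later KI step was not called without KI array 23 of 5 weeks (0.67, limma adjusted p = 0.053). Other probe sets gave other values. From 5 to 44 weeks the mean of all H2-D1 sets, the one used included, was -0.01 in WT (limma adjusted p = 0.99) and -0.30 in KI (adjusted p = 0.79). Over the same interval the dim set 1451934_PM_at was called lower in WT (-0.50, limma adjusted p = 0.0072). From 2 to 5 weeks the mean of all H2-D1 sets was 0.94 in WT (limma adjusted p = 0.26). These comparisons share arrays, so their values are not independent of each other.

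H2-K1, the other class I heavy chain measured, moved less. WT signals were 10.52, 9.92, 10.11 and 10.10 at 2 weeks, 10.01, 10.50, 11.08, 10.69 and 10.64 at 5 weeks, then 10.33, 10.92, 11.38 and 10.81 at 44 weeks. KI signals were 9.85, 9.91, 10.59 and 9.84 at 2 weeks, 9.93, 10.24, 10.32 and 10.71 at 5 weeks, then 10.51, 10.25, 10.51 and 10.78 at 44 weeks. Ages overlapped in both genotypes; array 21 of 2 weeks stood above the rest of its KI group. Over the whole span H2-K1 rose by 0.70 ± 0.23 in WT (limma adjusted p = 0.024), and the KI difference was 0.46 ± 0.23 (adjusted p = 0.13). The WT call was lost when any of 5 arrays was left out in turn (arrays 2, 3 and 5 of 2 weeks, arrays 16 and 17 of 44 weeks; lowest value 0.52, limma adjusted p = 0.11), and with the sex covariate (0.51, adjusted p = 0.13). Without KI array 21 the KI difference was 0.64 (limma adjusted p = 0.049).

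Cd74, the invariant chain, rose most in WT. Its WT signals were 8.04, 6.85, 8.64 and 7.64 at 2 weeks, 8.13, 7.00, 7.82, 7.98 and 9.47 at 5 weeks, then 10.15, 8.55, 9.93 and 9.73 at 44 weeks. Its KI signals were 8.57, 7.63, 8.25 and 8.84 at 2 weeks, 9.47, 9.70, 9.60 and 9.40 at 5 weeks, then 10.06, 9.91, 9.95 and 9.18 at 44 weeks. In WT the oldest group overlapped the younger ones through array 16, the lowest at 44 weeks, whereas in KI the 5-week and 44-week arrays all stood above those at 2 weeks. Over the whole span Cd74 rose by 1.80 ± 0.42 in WT (limma adjusted p = 0.0026) and by 1.46 ± 0.42 in KI (adjusted p = 0.012).

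By interval, Cd74 was called higher from 5 to 44 weeks in WT and in neither interval in KI. In WT the step from 5 to 44 weeks was 1.51 ± 0.40 (limma adjusted p = 0.012) and that from 2 to 5 weeks 0.29 ± 0.40 (adjusted p = 0.62). In KI the step from 2 to 5 weeks was 1.22 ± 0.42 (limma adjusted p = 0.058) and that from 5 to 44 weeks 0.24 ± 0.42 (adjusted p = 0.74). The test of the difference itself, the KI minus WT value at 44 weeks less that at 5 weeks, gave -1.27 ± 0.58 (limma adjusted p = 0.23), so a difference in timing was not shown. Without WT array 10 of 5 weeks, the highest of its group, it was -1.62 (limma adjusted p = 0.04). Without WT arrays 7, 8 and 9 of 5 weeks the WT step from 5 to 44 weeks was not called (0.79, limma adjusted p = 0.33), while the KI step from 2 to 5 weeks was (1.22, adjusted p = 0.039).

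H2-Aa, the alpha chain of the A molecule, followed Cd74. WT signals were 7.34, 6.00, 7.33 and 6.42 at 2 weeks, 7.13, 6.21, 7.10, 7.43 and 7.68 at 5 weeks, then 9.07, 7.63, 8.55 and 8.68 at 44 weeks. KI signals were 6.91, 6.35, 7.12 and 7.28 at 2 weeks, 7.80, 7.63, 8.05 and 7.83 at 5 weeks, then 8.82, 8.79, 8.43 and 7.78 at 44 weeks. No array at 44 weeks fell within the 2-week range in either genotype. Between 2 and 44 weeks the gene rose by 1.71 ± 0.34 in WT (limma adjusted p = 0.00067) and by 1.54 ± 0.34 in KI (adjusted p = 0.0018). The WT step from 5 to 44 weeks was 1.37 ± 0.32 (limma adjusted p = 0.0061), and 1.08 (adjusted p = 0.11) without WT arrays 7, 8 and 9; in KI the steps were 0.91 ± 0.34 from 2 to 5 weeks (adjusted p = 0.079) and 0.63 ± 0.34 from 5 to 44 weeks (adjusted p = 0.21).

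H2-Eb1, the beta chain of the E molecule, changed between 5 and 44 weeks. In WT it read 7.26, 7.16, 8.10 and 7.13 at 2 weeks, 7.90, 7.36, 7.53, 7.23 and 7.80 at 5 weeks, then 8.74, 7.77, 8.89 and 8.40 at 44 weeks. In KI it read 7.49, 7.50, 7.49 and 7.94 at 2 weeks, 8.02, 7.79, 7.81 and 8.16 at 5 weeks, then 9.01, 8.85, 9.07 and 8.17 at 44 weeks. KI arrays at 44 weeks stood above all younger KI arrays, the lowest of them, array 34, by 0.01; WT ages overlapped through array 3 of 2 weeks and array 16 of 44 weeks. Its rise over the whole span was 1.04 ± 0.24 in WT (limma adjusted p = 0.0026) and 1.17 ± 0.24 in KI (adjusted p = 0.0011), and from 5 to 44 weeks 0.89 ± 0.23 in WT (adjusted p = 0.011) and 0.83 ± 0.24 in KI (adjusted p = 0.025). The WT step was not called without WT arrays 7, 8 and 9 (0.60, limma adjusted p = 0.23). The KI step was lost when any of 5 arrays was left out in turn (KI arrays 24 and 25 of 5 weeks, 31, 32 and 33 of 44 weeks; highest limma adjusted p = 0.079). H2-Ea, whose product pairs with that of H2-Eb1 and which the annotation lists as a transcribed pseudogene, was not called in any comparison, and its group SD at 44 weeks was 1.73 in WT and 1.89 in KI.

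H2-Ab1, the beta chain of the A molecule, did not pass by age. WT signals were 5.86, 6.69, 8.39 and 6.84 at 2 weeks, 6.83, 6.76, 6.71, 7.10 and 7.00 at 5 weeks, then 8.21, 6.84, 8.25 and 7.73 at 44 weeks. KI signals were 7.97, 7.24, 7.42 and 7.98 at 2 weeks, 7.51, 7.79, 7.69 and 7.80 at 5 weeks, then 8.89, 8.21, 8.24 and 7.94 at 44 weeks. The WT 2-week arrays spanned more than those of any other group of this gene. The 44-week minus 2-week difference was 0.81 ± 0.37 in WT (limma adjusted p = 0.094) and 0.67 ± 0.37 in KI (adjusted p = 0.17). Without WT array 3, the highest at 2 weeks, the WT difference was 1.29 (limma adjusted p = 0.0025), and without WT array 16 of 44 weeks it was 1.12 (adjusted p = 0.025).

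H2-DMa, the dimmest of the 7, stayed between 4.56 and 6.02 on all arrays, near the filter limit of 4.603. Group means were 5.19 ± 0.64, 4.88 ± 0.27 and 5.50 ± 0.31 in WT at 2, 5 and 44 weeks (n = 4, 5 and 4) and 5.66 ± 0.21, 5.23 ± 0.30 and 5.64 ± 0.30 in KI (n = 4 each). The WT difference from 5 to 44 weeks was 0.63 ± 0.23 and not called (limma adjusted p = 0.06). It was called with the sex covariate (0.68, limma adjusted p = 0.032) and with array weights (0.78, adjusted p = 0.0092). The same held when WT array 1 or 3 of 2 weeks, 6 of 5 weeks or 16 of 44 weeks was left out. The 44-week minus 2-week difference was 0.31 ± 0.24 in WT (limma adjusted p = 0.35) and -0.01 ± 0.24 in KI (adjusted p = 0.98).

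Taken by interval, 1 of 7 genes was called higher from 2 to 5 weeks in WT, where 12.2% of all genes were called higher and 33.9% either way, and 0 of 7 in KI, where 5.40% were called higher and 13.7% either way; 3 of 7 KI genes had an unadjusted limma p under 0.05, as did 27.6% of all genes. From 5 to 44 weeks 4 of 7 were called higher in WT, where 11.3% of all genes were called higher and 20.1% either way, and 2 of 7 in KI, where 8.11% were called higher and 16.8% either way. The groups did not overlap for 1 gene in WT over this interval (12.1% of all genes) and for 3 in KI (25.8%). Between 2 and 5 weeks the groups were apart for 2 genes in KI, Cd74 and H2-Aa (25.2% of all genes), and for 0 in WT (16.7%).

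Ordered by group mean, Cd74 and H2-Eb1 rose through WT 2 weeks, WT 5 weeks, KI 2 weeks, KI 5 weeks, WT 44 weeks and KI 44 weeks. H2-Ab1 began with WT 5 weeks and WT 2 weeks and then kept that order. H2-Aa and H2-D1 began with WT 2 and KI 2 weeks and ended with KI 44 and WT 44 weeks. Neighbours in these orders were set by the same means, and no share over all genes was taken, so their overlap is description only. KI 2 and KI 5 weeks did not overlap for Cd74, nor did WT 5 and KI 44 weeks for H2-D1. The groups of H2-DMa and H2-K1 overlapped with every neighbour.

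**Figure D2:**
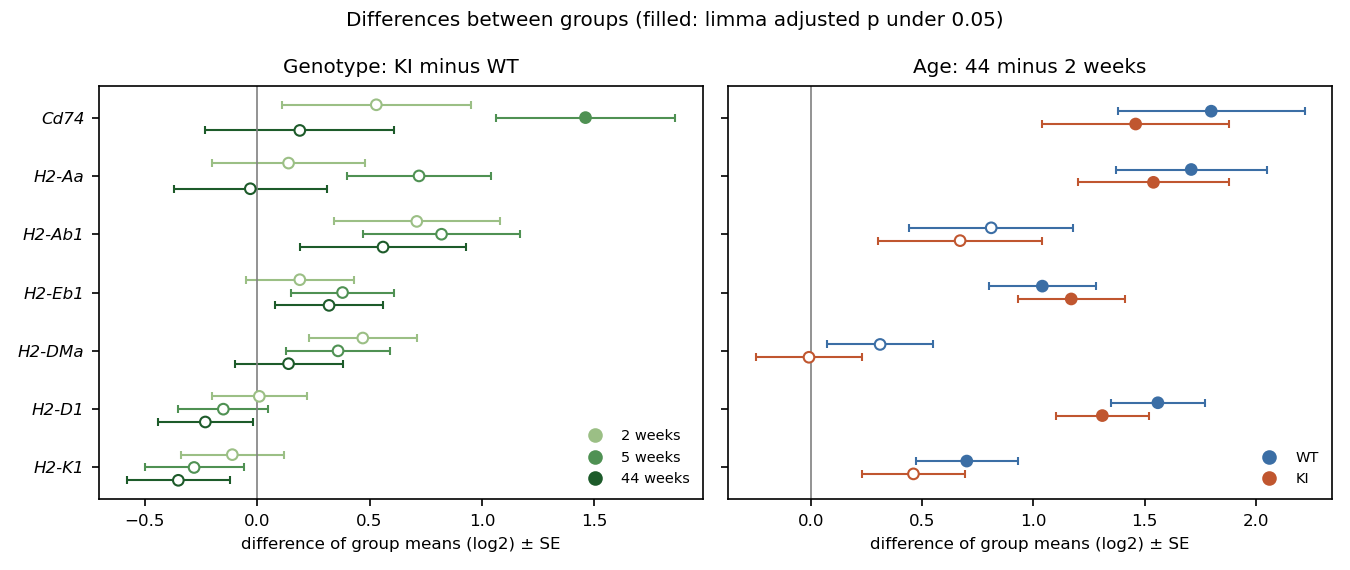
Log2 differences between group means, with standard errors (horizontal axes) for the 7 genes (vertical axis), on the left KI minus WT at 2, 5 and 44 weeks and on the right 44 minus 2 weeks in WT and KI. Filled points passed at a limma adjusted p under 0.05. On the left 1 point is filled, Cd74 at 5 weeks at 1.46, and on the right 5 WT and 4 KI points are filled.

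Between genotypes, 1 gene passed: at 5 weeks Cd74 was 2.75-fold higher in KI (9.54 ± 0.14, n = 4) than in WT (8.08 ± 0.89, n = 5), a difference of 1.46 ± 0.40 (limma adjusted p = 0.015). That made 1 of 7 genes, where 22.0% of all genes were called and 14.3% were called higher. The 4 KI arrays, 9.40 to 9.70, stood above 4 of the 5 WT arrays, 7.00 to 8.13, while WT array 10, at 9.47, lay among them. The call was lost without WT array 7, the lowest (1.19, limma adjusted p = 0.051), and without WT arrays 7, 8 and 9 together (0.74, adjusted p = 0.53). It was also lost when only the 5-week arrays were fitted (1.46, limma adjusted p = 0.057).

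The other class II genes had higher means in KI at 5 weeks and did not pass in this fit. H2-Ab1 did not overlap between genotypes, 7.51 to 7.80 in KI and 6.71 to 7.10 in WT, and differed by 0.82 ± 0.35 (limma adjusted p = 0.091); it was the 1 gene of the 7 without overlap, against 12.0% of all genes. With only the 5-week arrays fitted H2-Ab1 was called (0.82, limma adjusted p = 0.036), as it was without WT array 3 of 2 weeks (0.82, adjusted p = 0.03), and with the mean of its probe sets H2-Aa was called (0.71, adjusted p = 0.045). The differences were 0.72 ± 0.32 for H2-Aa (limma adjusted p = 0.11), 0.38 ± 0.23 for H2-Eb1 (adjusted p = 0.23) and 0.36 ± 0.23 for H2-DMa (adjusted p = 0.26). The differences of the class I genes were -0.15 ± 0.20 for H2-D1 (limma adjusted p = 0.60) and -0.28 ± 0.22 for H2-K1 (adjusted p = 0.35). The median difference of the 7 genes was 0.38, against 0.06 over all genes.

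At 2 weeks 0 of 7 genes were called between genotypes, as were 0% of all genes by adjusted p; at an unadjusted limma p under 0.05 the counts were 0 of 7 and 613 of 11968 (5.12%). At 44 weeks 0 of 7 were called, against 0.0251% of all genes, and 0 of 7 had an unadjusted p under 0.05, against 6.37%. Averaged over the 3 ages 0 of 7 were called, against 5.32% of all genes, and 4 of 7 had an unadjusted limma p under 0.05, against 25.8%. The 2 largest averaged differences were those of Cd74, 0.73 ± 0.24 (limma adjusted p = 0.069), and H2-Ab1, 0.69 ± 0.21 (adjusted p = 0.052). The averaged H2-Ab1 difference was called without WT array 3 of 2 weeks (0.86, limma adjusted p = 0.015), and the averaged Cd74 difference without WT array 10 of 5 weeks (0.84, adjusted p = 0.013). In the 3 tests of how the genotype difference changed between ages 0 of 7 genes were called by adjusted p. Of all genes 0.0251% were called from 2 to 5 weeks and 0% in both others. At an unadjusted limma p under 0.05 the counts of the 7 genes were 0 from 2 to 5 weeks (18.7% of all genes), 1 from 5 to 44 weeks (19.5%) and 0 from 2 to 44 weeks (3.00%).

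Markers of macrophages and dendritic cells, the cells that carry most class II in kidney, moved in part with the class II genes. Of 20 such markers 14 were bright enough to test; the defining markers Csf1r (5.02 to 7.83) and Ptprc (4.03 to 6.71) were among them, while Adgre1 (3.06 to 4.54) and Itgax (3.09 to 4.14) lay below the filter limit. Their mean ran from 5.31 to 5.60 in WT and 5.48 to 5.79 in KI at 2 weeks, from 4.93 to 5.67 and 5.72 to 5.92 at 5 weeks, and from 5.30 to 6.13 and 6.01 to 6.20 at 44 weeks. The list was thus lowest on WT array 7 of 5 weeks, and at 5 weeks every KI array stood above every WT array. WT array 16 of 44 weeks, lowest of its group for 5 class II genes, also had the lowest marker mean of its group. WT array 3 of 2 weeks went the other way. It was highest of its group for Cd74 (8.64), H2-Ab1 (8.39), H2-Eb1 (8.10) and H2-DMa (6.02). Its marker mean, 5.31, was the lowest of its group.

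Single markers did not all move one way. Between 2 and 44 weeks, 5 of 14 were called higher and 1 lower in WT, among them Ptprc, the leukocyte phosphatase CD45, up by 1.30, Tyrobp, a myeloid signalling adaptor, up by 0.99 and Csf1r, the macrophage growth factor receptor, at -1.60. In KI 8 were called higher and 1 lower, with Mrc1, the mannose receptor, at 1.28 and Csf1r at -1.75. Shares of all genes called either way over this span were 31.6% in WT and 30.2% in KI. Between genotypes at 5 weeks 6 of 14 were called higher in KI, among them Tyrobp (1.09, limma adjusted p = 0.0059) and Mrc1 (1.13, adjusted p = 0.023). At that age 14.3% of all genes were called higher in KI. For B cells Cd79a was tested (4.21 to 4.95) and Ms4a1 was below the filter limit (3.27 to 3.98); of 4 tested T and NK cell markers 0 were called between 2 and 44 weeks or between genotypes at 5 weeks.

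**Figure D3:**
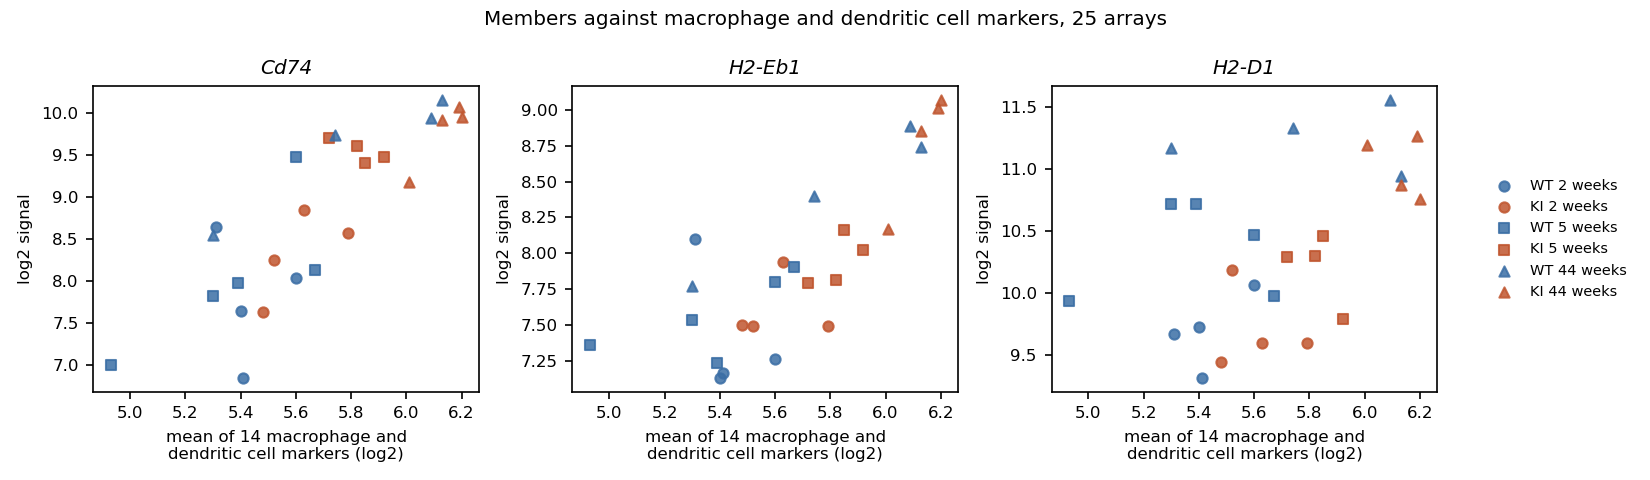
Log2 signal of Cd74, H2-Eb1 and H2-D1 (vertical axes) against the mean log2 signal of 14 macrophage and dendritic cell markers (horizontal axes) on 25 arrays; circles, squares and triangles are 2, 5 and 44 weeks, blue is WT and red is KI. Cd74 and H2-Eb1 tend to climb with the markers. WT array 3 of 2 weeks departs from this, being highest of its group for both genes at a marker mean of 5.31. The 44-week H2-D1 values, 10.76 to 11.56, lie high at every marker level from 5.30 to 6.20.

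With the mean of these markers as a covariate in the fit, the H2-D1 rise from 2 to 44 weeks was 1.53 in WT (limma adjusted p = 0.00012) and 1.27 in KI (adjusted p = 0.0022). The class II rises were smaller: in WT Cd74 was 1.05 (limma adjusted p = 0.038), H2-Aa 1.13 (adjusted p = 0.009) and H2-Eb1 0.68 (adjusted p = 0.036). In KI they were no longer called, at 0.43 for Cd74 (limma adjusted p = 0.46), 0.75 for H2-Aa (adjusted p = 0.11) and 0.68 for H2-Eb1 (adjusted p = 0.061). In WT from 5 to 44 weeks H2-D1 alone was called with this covariate, and with a tubule marker covariate in its place. The Cd74 difference between genotypes at 5 weeks was 0.59 with the macrophage covariate (limma adjusted p = 0.42) and 0.30 with a tubule marker covariate (adjusted p = 0.81); proximal tubule markers ran from 8.86 to 9.92 in WT and from 10.20 to 10.51 in KI at that age. Markers of other cells also stood apart there: 12 endothelial markers averaged 7.21 to 7.59 in KI and 5.91 to 6.95 in WT with 6 called higher, 8 of mesangium and smooth muscle 8.03 to 8.29 and 6.60 to 7.93 with 4 called higher, and 10 of the distal nephron 8.33 to 8.59 and 7.14 to 8.08 with 3 called higher. At that age 14.3% of all genes were called higher in KI. With age, from 2 to 44 weeks, 6 of the 10 distal nephron markers were called higher in WT and 0 in KI. In each genotype 6 of the 8 mesangial and smooth muscle markers were called lower. Of 9 podocyte markers 5 were called higher in WT and 6 in KI, and 0 lower. Nphs1 rose by 1.00 in WT and 1.14 in KI. Shares of all genes called higher were 13.6% in WT and 14.3% in KI. At 5 weeks the macrophage and tubule marker means each separated the genotypes without overlap. By group mean the macrophage markers were also higher at 44 than at 2 weeks in both genotypes. The covariate fits therefore cannot separate these marker means from genotype or age. The part of these cell types in the differences was not tested.

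The genes varied together from array to array to different degrees, within and across the 2 classes. Over the 25 arrays Pearson r was 0.93 between Cd74 and H2-Aa, and 0.88 with group means removed. Between H2-D1 and H2-K1 it was 0.81, and 0.84 with group means removed. Not every class II pair was as close: H2-Aa and H2-DMa gave 0.41, and 0.39 with group means removed. Across the classes H2-D1 gave 0.78 with H2-Aa, 0.65 with H2-Eb1 and 0.62 with Cd74 over all arrays, and 0.36, -0.11 and 0.23 with group means removed. These are descriptions over arrays that share groups, and the 2 class I probe sets may match related transcripts. The gene outside the list most like the mean of the 5 class II genes was Mpeg1, a macrophage perforin-like protein (r = 0.91, rho = 0.89), followed by Msrb1 (0.88), Ipcef1 (0.87), Fam149a (0.87) and Mmut (0.86). Most like the mean of H2-D1 and H2-K1 were Cetn3 (r = 0.92), Mapt (0.91), Phf20l1 (0.91), Phax (0.90) and Arhgap24 (0.90).

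Other probe sets of the same genes were also tested, in a fit over 31556 probe sets where 27.6% were called between 2 and 44 weeks in WT and 24.8% in KI. Of the 4 probe sets of H2-K1, 4 were called higher in WT (0.63 to 1.09) and 2 in KI; the brightest other set, 1427746_PM_x_at, rose by 1.09 in WT (limma adjusted p = 0.00039) and by 0.93 in KI (adjusted p = 0.002). The 2 tested sets of H2-Aa rose in both genotypes, and the second of them also passed between genotypes at 5 weeks (1.32, limma adjusted p = 0.026). For H2-Ab1 1 of 3 sets passed in WT (1451721_PM_a_at, 0.92, limma adjusted p = 0.045). Of 5 sets annotated to several symbols, with H2-K1 or H2-D1 among them, 4 rose in both genotypes.

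The 5 probe sets of H2-D1 disagreed. Between 2 and 44 weeks 1451784_PM_x_at, used above, and 1450170_PM_x_at were called higher in WT (1.56 and 0.95), while the dim set 1451934_PM_at was called lower in WT (-0.38, limma adjusted p = 0.026) and in KI (-0.44, adjusted p = 0.013). The remaining 2, 1452544_PM_x_at and 1427651_PM_x_at, split the arrays in a way the groups do not explain, and their standard errors in WT were 1.67 and 1.52. The first read 9.16 to 11.15 on 13 arrays and 4.69 to 5.84 on the other 12; the second read 9.11 to 11.09 and 5.21 to 6.46 on the same arrays.

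The split ran through the H2 region. Counting a gap of at least 1 between the sides, 5 of 45141 probe sets separated the same 13 arrays from the same 12. Besides the 2 of H2-D1 these were 1425614_PM_x_at, annotated to H2-K1, H2-D1 and LOC547349 (8.51 to 10.68 against 4.56 to 5.59), H2-Q5 (7.57 to 10.21 against 4.41 to 5.57) and a set of H2-Ea (5.22 to 8.37 against 2.77 to 3.27). Every one of these genes with a known place is on chromosome 17. Sets 1427651_PM_x_at and 1425614_PM_x_at followed the set used for the cut at r = 1.00. Whether they match the same transcripts was not tested, so the 5 sets are not independent evidence. The high arrays were 1 of 4 WT and 2 of 4 KI at 2 weeks, 3 of 5 WT and 3 of 4 KI at 5 weeks, and 2 of 4 WT and 2 of 4 KI at 44 weeks. As background, inbred mouse strains differ in their H2 haplotypes, in allele sequence and in whether H2-Ea is transcribed; no source used here gives the haplotype of each mouse, and the cause of the split was not tested.

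**Figure D4:**
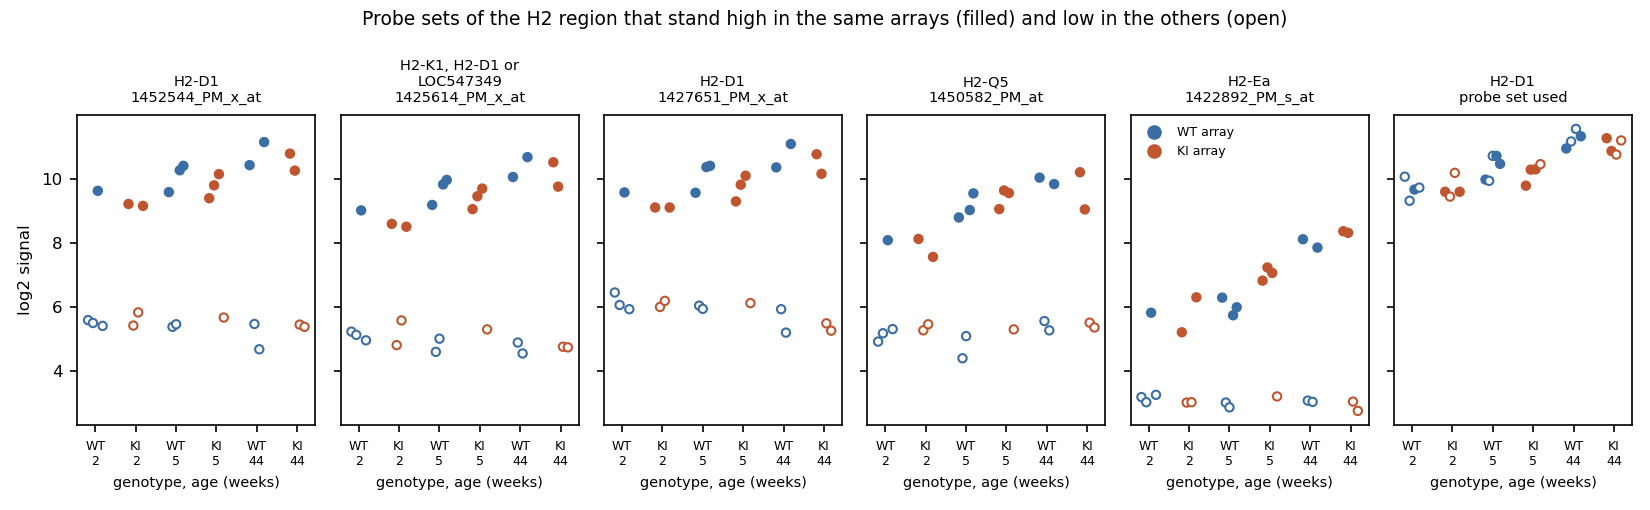
Log2 signal (vertical axis) by genotype and age in weeks (horizontal axes) for 5 probe sets that separate the same arrays and, at the far right, for the H2-D1 probe set used in the tests. Filled points are the 13 high arrays and open points the other 12, blue for WT and red for KI. The 5 sets leave a gap of 1.95 to 3.32 between filled and open points, and in the last panel the 2 kinds mix.

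Over all arrays the sides overlapped on the probe sets used for the 7 genes. H2-D1 ran from 9.60 to 11.33 on the high arrays and from 9.32 to 11.56 on the others, H2-K1 from 9.84 to 10.81 and from 9.91 to 11.38, and Cd74 from 7.98 to 10.15 and from 6.85 to 9.95. Within groups Cd74 stood higher on the high arrays in both genotypes at 2 and 5 weeks, and the sides mixed at 44 weeks. In WT at 5 weeks it read 7.98 to 9.47 against 7.00 and 7.82. H2-Aa stood higher on the high arrays in WT at 5 weeks and in both genotypes at 44 weeks. At 44 weeks it read 9.07 and 8.68 against 7.63 and 8.55 in WT, and 8.82 and 8.79 against 8.43 and 7.78 in KI. H2-DMa stood higher there in WT at all 3 ages, H2-Ab1 in both genotypes at 2 weeks and WT at 5 weeks, and H2-Eb1 in WT at 2 weeks. In KI at 5 weeks H2-Ab1, H2-Eb1 and H2-D1 stood lower. Other groups of these genes mixed. H2-K1 stood lower on the high arrays in KI at 2 and 5 weeks and in WT at 44 weeks. In that WT group it read 10.33 and 10.81 against 10.92 and 11.38. Elsewhere its sides overlapped. Whether the split bears on these values was not tested. On the H2-D1 set used above the 44-week high arrays read 10.95 and 11.33 in WT and 11.27 and 10.87 in KI, the others 11.17 and 11.56 in WT and 10.76 and 11.20 in KI. H2-Ea, in the set chosen by mean, did separate them, 4.99 to 7.68 against 3.89 to 4.80.

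Other genes of class II handling went both ways with age. Of 16 listed genes 9 were tested: between 2 and 44 weeks 1 was called higher and 3 lower in WT, and 1 higher and 2 lower in KI. Over this span 31.6% of all genes were called either way in WT and 30.2% in KI. Ctss, the cathepsin that trims Cd74, rose by 1.98 ± 0.48 in WT (limma adjusted p = 0.0032) and by 2.21 ± 0.48 in KI (adjusted p = 0.0015). Ifi30, a lysosomal thiol reductase that opens antigens, was lower at 44 weeks, at -0.97 in WT and -0.90 in KI, as was Cd83, a marker of mature dendritic cells, at -1.41 and -0.99. Between genotypes at 5 weeks 2 were called higher in KI, Ifi30 (0.68, limma adjusted p = 0.0064) and Lgmn, the endosomal protease legumain (0.75, adjusted p = 0.0073). At that age 14.3% of all genes were called higher in KI.

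Of 14 tested genes of class I loading and related molecules, 4 were called higher and 1 lower between 2 and 44 weeks in WT, and 3 higher and 0 lower in KI. Over this span 31.6% of all genes were called either way in WT and 30.2% in KI. Psmb9, an immunoproteasome subunit, rose by 1.38 in WT (limma adjusted p = 0.00049) and by 0.86 in KI (adjusted p = 0.019). Nlrc5, the class I coactivator, rose by 1.70 in WT (limma adjusted p = 0.0022) and by 1.14 in KI (adjusted p = 0.032), and its step from 2 to 5 weeks was 1.77 in WT and 1.54 in KI. Fcgrt, the neonatal Fc receptor, was called lower in WT (-0.90). Between genotypes at 5 weeks Fcgrt (0.96, limma adjusted p = 0.008) and Psmb10, another immunoproteasome subunit (0.72, adjusted p = 0.017), were called higher in KI. They were 2 of the 14, where 14.3% of all genes were called higher.

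Class I related H2 genes rose in part as well: of 7 tested, 4 were called higher and 1 lower between 2 and 44 weeks in each genotype. Over this span 31.6% of all genes were called either way in WT and 30.2% in KI. H2-M3, which presents formylated peptides, rose by 1.20 in WT (limma adjusted p = 1.3e-06) and by 0.82 in KI (adjusted p = 0.00011), H2-Q4 rose by 1.17 and 1.41, and H2-T3 was lower, at -0.66 in both. Of the 15 tested genes of interferon gamma signalling and class II and I transcription factors, 1 was called higher and 3 lower in WT and 2 higher and 4 lower in KI. The shares of all genes are those just given. Jak1, a kinase of the interferon receptors, rose by 0.78 and 0.80, while Nfyc and Nfya, subunits of NF-Y, were lower, at -0.47 and -0.77 in WT and -0.51 and -0.77 in KI. Irf8 was also called lower in WT (-1.22, limma adjusted p = 0.0014) and Socs1 in KI (-0.55, limma adjusted p = 0.0021).

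Of 16 tested interferon-induced GTPases and response genes, 4 were called higher and 1 lower between 2 and 44 weeks in each genotype. This was near the share of all genes called either way, 31.6% in WT and 30.2% in KI. Gbp2, a guanylate-binding protein, rose by 0.95 in WT and 0.84 in KI, and Irgm2, an immunity-related GTPase, by 1.17 and 0.87, while Gbp4 was lower, at -0.88 and -0.71. The median over the 16 was 0.21 in WT and 0.07 in KI, nearer to the median of all genes than that of the 7 presentation genes. At 5 weeks between genotypes Irf7, an interferon regulatory factor, was called higher in KI (1.02, limma adjusted p = 0.01) and Gbp7 lower (-0.66, adjusted p = 0.015). Among all genes 22.0% were called either way at that age.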

How the data were processed

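Polysomal RNA of 25 samples was hybridized to an Affymetrix mouse array with perfect-match probes only, amplified in 1 round with NuGEN WT-Ovation and labelled with the Encore Biotin Module, per the labels' protocols. The deposited values are on a log2 scale, 1 per probe set, from 1.86 to 13.62; array medians differed by at most 0.17. No source used here says how the authors summarized or normalized them. Arrays have no read depth; their number limits the precision.

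Of 45141 probe sets 28898 had 1 gene symbol, 551 several, 15692 none listed, and 104 were controls; symbols were updated through Entrez identifiers. Each gene kept its brightest probe set, and the dimmest 30% of 17097 genes were left out (limit 4.603). The fit used limma 3.58.1 in R 4.3.3 (lmFit, eBayes; 6 group means, 19 residual and 3.05 prior degrees of freedom, 13 contrasts) and was tested on simulated data.

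The rule named the members, H2-Ea, up to 4 called genes per list and comparison, or 2 where none passed, and the 5 genes most like each class mean. The class I mean held 2 of the 5 genes planned. Members, lists and motifs were chosen with earlier results of these data known. No probe sequences were used here, so matches of a probe set to related H2 transcripts (those whose identifier ends in x_at in particular) were not tested. Alternatives concerned normalization, filter, probe sets, prior, weights, samples fitted, covariates and left-out arrays; tests of single probe sets and the description of the split were added after the data were seen.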

Additional observations from a re-analysis of the deposited data

Results flagged for a closer look

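Of 42 groups of 4 or 5 arrays examined for the 7 genes, 5 held an array far from the rest of its group; chance alone marks about 1 in 20 such groups. In KI at 44 weeks array 34 was low for Cd74 (9.18, the others 9.91 to 10.06) and for H2-DMa (5.19, the others 5.77 to 5.83); its macrophage marker mean, 6.01, was the lowest of its group. In WT at 2 weeks array 3 was high for H2-Eb1 (8.10, the others 7.13 to 7.26); it is the 1 array of that group on the high side of the split H2 probe sets. Its macrophage marker mean, 5.31, was the lowest of its group. In KI at 2 weeks array 22 was high for H2-Eb1 (7.94, the others 7.49 to 7.50) and array 21 for H2-K1 (10.59, the others 9.84 to 9.91). What sets these arrays apart was not tested.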

How the results depend on the processing

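No paired analysis was possible because each array has a number of its own. With 1 array left out, the count of genes called ranged from 4 to 5 between 2 and 44 weeks in WT and in KI, from 4 to 6 and from 1 to 2 between 5 and 44 weeks, and from 0 to 2 and from 0 to 1 between 2 and 5 weeks. For KI against WT it ranged from 0 to 2 at 5 weeks and from 0 to 3 for the average, and was 0 at 2 and 44 weeks; for the tests between ages it ranged from 0 to 1.

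Counts also moved with the fit. With the mean of all probe sets 2 genes passed for KI against WT at 5 weeks, 1 for KI from 2 to 5 weeks and 1 for KI from 5 to 44 weeks. With the macrophage covariate 0 passed for KI against WT at 5 weeks, 1 for WT from 5 to 44 weeks, 1 for KI from 5 to 44 weeks and 1 for KI from 2 to 44 weeks; with the tubule covariate the counts were 0 at 5 weeks, 1 for WT from 5 to 44 weeks and 1 for KI from 2 to 5 weeks. Array weights gave 3 for the average, 3 for WT and 3 for KI from 2 to 5 weeks; 50% of genes left out and the robust prior gave 1 each for the average. Fitting only the arrays compared gave 0 for WT and 2 for KI from 2 to 5 weeks, and 2 for WT from 5 to 44 weeks. The sex covariate gave 0 for WT from 2 to 5 weeks, and quantile normalization 1 for KI. Without WT arrays 7, 8 and 9 the counts were 0 for the genotypes at 5 weeks, 0 for WT and 1 for KI from 2 to 5 weeks, and 1 for WT from 5 to 44 weeks. Over all 11968 genes that fit called 1, 991, 1687 and 851 in the same order, the main fit 2638, 4053, 1638 and 2408. For the other settings and left-out arrays the share of all genes is not given. Changes in the 7 genes there cannot be told from changes over all genes.

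H2-D1 turned direction with the probe sets used. From 5 to 44 weeks the mean of its probe sets gave -0.01 in WT and -0.30 in KI; single sets gave -0.32 and -0.91 (1427651), -0.29 and -0.79 (1452544), -0.50 and -0.24 (1451934), and in KI -0.39 (1450170). From 2 to 44 weeks the last but one gave -0.38 in WT and -0.44 in KI. Values that passed in neither fit were not compared for sign. For H2-D1 from 2 to 44 weeks, the mean of all its probe sets gave 0.93 in WT (limma adjusted p = 0.29) and 0.46 in KI (adjusted p = 0.63); 2 of the averaged sets carry the split. No value here rests on a depth of reads; H2-DMa, near the filter limit, is the gene whose signal limits it most.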
